A study of Bos taurus with 48 samples.

Results

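Genes of the interferon response were followed in whole blood of dairy bull calves around weaning: IFNB1 (ENSBTAG00000045674), which encodes the cytokine interferon beta, CXCL10 (ENSBTAG00000001725), which encodes a chemokine, and CD274 (ENSBTAG00000000095), which encodes programmed death ligand 1 (PD-L1). They are 3 of the 24616 annotated genes in the deposited table, and all 3 passed the filter on low counts. They were taken by identifier, and they were chosen because earlier results on these same calves had shown them to differ between breeds, so every difference between breeds given for them is a description and not a test. The calves were Holstein-Friesian (H-F) and Jersey (J) bulls, 8 of each breed, that were housed together and weaned gradually by a stepwise reduction of milk replacer. Blood was drawn into RNA-stabilising tubes from every calf on d -14, before the reduction of milk began, on d 1, just after milk was withdrawn, and on d 8. There was no unweaned group, so weaning and age cannot be told apart. All H-F calves came from 1 farm, whereas the J calves were bought elsewhere, the J calves were on average older and lighter at arrival, concentrate was rationed for H-F and free for J calves before weaning, although the study states that H-F calves never ate their full ration, and all calves were vaccinated on arrival. Breed, farm of origin and age therefore cannot be told apart in these data. J calf 85 was left out as described in the processing notes, so that 15 calves (8 H-F, 7 J) and their 45 libraries remained, whose totals lay between 28088019 and 39095624 counts with a median of 33666332, and the 3 libraries of J calf 85 are described on their own.

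Interferon beta is a type I interferon, made by cells that sense the nucleic acids of viruses or other microbes. It binds the interferon alpha and beta receptor and switches on a broad set of interferon-induced genes. CXCL10 attracts activated T cells and natural killer cells that carry the receptor CXCR3, and PD-L1 restrains T cells through the receptor PD-1. Both genes are known to be induced by type I interferon and more strongly by interferon gamma, and a question of this work was whether the ligand gene and the genes it can induce moved together.

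In the text, CPM are counts scaled to the library total by the usual counts-per-million unit after TMM normalization, errors of CPM are SD over calves, and fold changes are on the log2 scale with their standard error (SE) from the edgeR model. Calf numbers are those in the sample labels, and 3 values given in a row are in the order of the days. Counts of IFNB1 were low, from 16 to 177 reads per library (median 68), so that the counting error alone was 25% at the lowest count and 12.1% at the median. CXCL10 was covered by 107 to 838 reads (median 251) and CD274 by 161 to 909 reads (median 397). Such counting error does not include the spread between calves. Only reads that mapped to a single place in the genome were counted, so reads shared between near-identical copies of interferon beta genes would have been lost, and the values of IFNB1 are uncertain to that extent.

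The transcript of the ligand, IFNB1, was higher in J than in H-F calves on each day and stayed close to its own level in most calves. In H-F calves, it ranged from 0.458 to 2.69 CPM on d -14 (median 1.26), from 0.633 to 2.52 CPM on d 1 (median 1.39) and from 0.587 to 2.67 CPM on d 8 (median 1.24). In J calves, it ranged from 1.44 to 5.24 CPM on d -14 (median 2.95), from 1.94 to 5.49 CPM on d 1 (median 3.13) and from 1.94 to 4.90 CPM on d 8 (median 3.04). The breeds overlapped, with 5 of 7 J calves above every H-F calf on d -14 and 6 of 7 on d 1 and on d 8. H-F calf 33 was the highest of its breed on all 3 days, at 2.69, 2.52 and 2.67 CPM, and its values lay within the range of the J calves. The log2 fold change of J over H-F was 1.14 (SE 0.33) on d -14, 1.38 (SE 0.33) on d 1 and 1.30 (SE 0.33) on d 8, which is given as a description.

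CXCL10, the chemokine gene, had the opposite order, lower in J than in H-F calves. Its H-F levels were 6.52 to 16.7 CPM on d -14 (median 8.73), 5.69 to 28.0 CPM on d 1 (median 9.46) and 6.86 to 15.8 CPM on d 8 (median 8.18). Its J levels were 3.36 to 8.09 CPM on d -14 (median 5.33), 3.29 to 7.64 CPM on d 1 (median 4.90) and 3.96 to 16.1 CPM on d 8 (median 5.38). Here too the breeds overlapped, with 6 of 7 J calves below every H-F calf on d -14 and 5 of 7 on d 1 and on d 8. The log2 fold change was -0.85 (SE 0.29) on d -14, -1.18 (SE 0.29) on d 1 and -0.49 (SE 0.29) on d 8. A single calf had a large part in the last of these values: without J calf 13, which had the highest CXCL10 of all on d 8, it was -0.83, and without H-F calf 27, the highest on d 1, the value on d 1 was -0.88.

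CD274, the gene of PD-L1, was lower in J calves on d -14 and level with the H-F calves on d 8. H-F calves had 7.10 to 17.4 CPM on d -14 (median 13.4), 8.90 to 28.2 CPM on d 1 (median 12.2) and 7.28 to 23.5 CPM on d 8 (median 13.9). J calves had 5.06 to 10.3 CPM on d -14 (median 9.24), 7.53 to 18.9 CPM on d 1 (median 11.7) and 9.37 to 25.6 CPM on d 8 (median 12.8). On d -14, 7 of 8 H-F calves lay above every J calf, and H-F calf 56 was the exception, while on d 1 and d 8 the breeds lay across each other. The log2 fold change of J over H-F was -0.62 (SE 0.26) on d -14, -0.27 (SE 0.25) on d 1 and 0.03 (SE 0.25) on d 8. Without H-F calf 27 the value on d 1 was -0.06, and without J calf 13 the value on d 8 was -0.15. On no day were the breeds fully apart for any of the 3 genes, which was the case for 1.17% of all tested genes on d -14, 0.655% on d 1 and 0.844% on d 8.

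**Figure D1:**
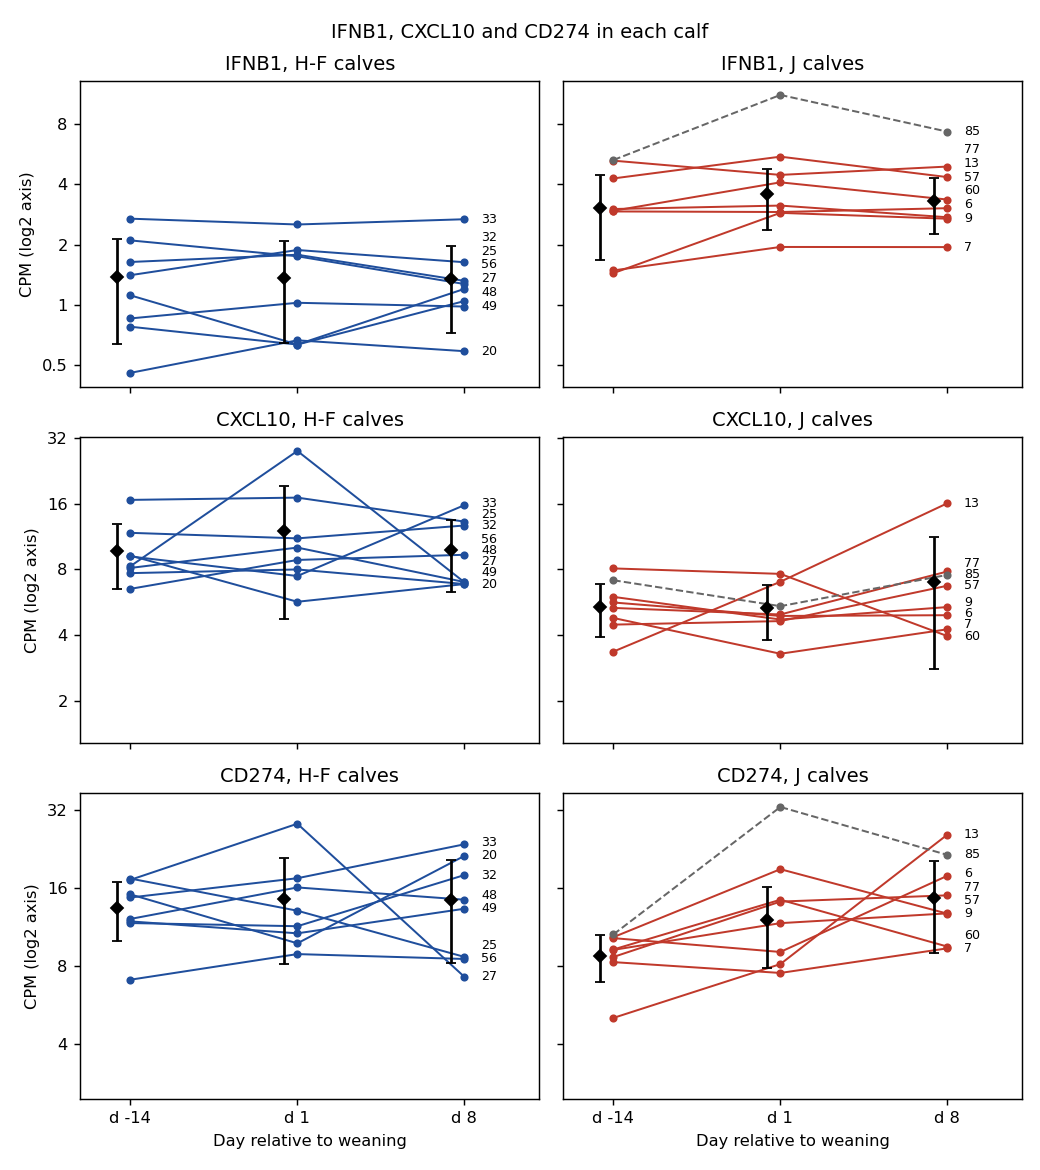
CPM of IFNB1, CXCL10 and CD274 (log2 axis) on the 3 days, with a line for each calf, numbered at the right, and black diamonds with bars for the mean ± SD of the 8 H-F or 7 J calves. The dashed grey line is J calf 85, which is outside the means. IFNB1 lines cross in places but, outside J calf 85 (2.11-fold), stay within 2.0-fold between days of a calf. Those of CXCL10 and CD274 are less level. H-F calf 27 reaches 28.0 and 28.2 CPM on d 1, and J calf 13 reaches 16.1 and 25.6 CPM on d 8.

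The 3 genes differed in where their variation lay, which the choice of the genes did not use. IFNB1 varied mainly between calves: 83.0% of the variance of its log2 CPM in H-F calves and 82.9% in J calves lay between calves, with the rest within a calf over the 3 days. For CXCL10 the share between calves was 22.3% in H-F and 0% in J calves, and for CD274 it was 8.48% and 0%. A share of 0% here means that the calves' means differed by no more than the spread within calves would give. The spread within a calf was an SD of 0.30 (H-F) and 0.23 (J) on the log2 scale for IFNB1, 0.50 and 0.54 for CXCL10, and 0.52 and 0.49 for CD274. These shares rest on 8 and 7 calves and on low counts of IFNB1, and they were not compared by a test.

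The level of single calves shows the same. IFNB1 in H-F calf 20, the lowest of its breed on d -14 and d 8, was 0.46, 0.67 and 0.59 CPM on the 3 days. In J calf 77 it was 5.24, 4.45 and 4.90 CPM. Without J calf 85, the highest day of a calf was 1.07 to 1.89 times its lowest day in H-F (median 1.40) and 1.04 to 2.0 times in J (median 1.28). J calf 85, which was left out of the comparisons, changed its level of the ligand gene by more than this, with a ratio of 2.11. For CXCL10 this ratio reached 4.0 in H-F (median 1.44) and 4.79 in J (median 1.51), and for CD274 it reached 3.88 (median 1.59) and 5.06 (median 1.73). The largest ratios of both induced genes belonged to H-F calf 27 and J calf 13, while most other calves had small ones.

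**Figure D2:**
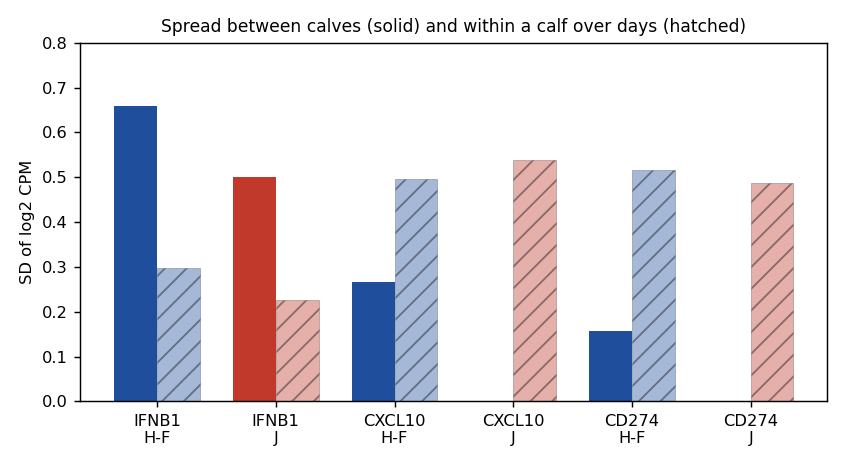
SD of log2 CPM between calves (solid bars) and within a calf over the 3 days (hatched bars) for each gene in the 8 H-F (blue) and 7 J (red) calves. The solid bar is the taller for IFNB1 only, at 0.66 in H-F and 0.50 in J calves, and it is at 0 for CXCL10 and CD274 in J calves.

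Days within breed were compared with edgeR's quasi-likelihood (QL) test, in which a gene was called when its adjusted p (Benjamini-Hochberg) was under 0.1 and its level changed by a factor of 1.5 or more. None of the 3 genes was called between any pair of days in either breed. Over all tested genes, 0.071% were called between d -14 and d 8 in H-F calves and 0% in each of the other 5 comparisons of days. At an unadjusted p under 0.05 there was 1 of the 18 tests of these genes, CD274 between d -14 and d 8 in J calves. The exact test, DESeq2 and limma-voom also called 0 of the 3 genes. With calf as a block, 0.252% of all genes were called between d -14 and d 1 and 1.08% between d -14 and d 8 in H-F calves. Shares in J calves were 0.0552% and 0.205%, and none of these genes was 1 of the 3.

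The largest day change of the 3 was that of CD274 in J calves, with 8.73 ± 1.79 CPM (n = 7) on d -14, 12 ± 4.11 CPM on d 1 and 14.7 ± 5.66 CPM on d 8. CD274 was higher on d 8 than on d -14 in 7 of 7 J calves, and the ranges of the days overlapped between 9.37 and 10.3 CPM. Its log2 fold change from d -14 to d 8 was 0.75 (SE 0.26), with an adjusted p of 1.00 by the edgeR QL test and, with calf as a block, 0.73 (SE 0.25) and an adjusted p of 0.428. It did not pass the threshold, and without J calf 13 it was 0.46. In H-F calves CD274 had 13.4 ± 3.40, 14.4 ± 6.31 and 14.4 ± 6.11 CPM (n = 8) on the same days, with 6 of 8 calves higher on d 8 than on d -14 and a log2 fold change of 0.10 (SE 0.24). The difference between breeds in this change was 0.65 (SE 0.36), and its adjusted p of 0.999 did not pass the threshold in the test of the interaction, as for 0% of all genes called. The level on d -14, which took part in the choice of the gene, is in this difference and also in the change of J calves. Neither is therefore independent of that choice, nor is the count of 7 of 7 J calves.

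CXCL10 had no shared change over the days. It had 9.69 ± 3.21, 12 ± 7.28 and 9.85 ± 3.57 CPM in H-F calves (n = 8) and 5.38 ± 1.47, 5.31 ± 1.5 and 7.03 ± 4.23 CPM in J calves (n = 7) on the 3 days. The higher means in H-F on d 1 and in J on d 8 came with 1 calf each. The log2 fold change from d -14 to d 1 in H-F calves was 0.31 (SE 0.27) with all 8 calves and -0.02 without H-F calf 27. From d -14 to d 8 in J calves it was 0.38 (SE 0.30) with all 7 calves and -0.05 without J calf 13. Only 3 of 7 J calves had more CXCL10 on d 8 than on d -14.

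IFNB1 had 1.38 ± 0.743, 1.36 ± 0.716 and 1.34 ± 0.618 CPM in H-F calves (n = 8) and 3.05 ± 1.38, 3.56 ± 1.19 and 3.29 ± 1.02 CPM in J calves (n = 7). The log2 fold change from d -14 to d 1 was -0.01 (SE 0.32) in H-F and 0.22 (SE 0.33) in J calves. With calf as a block the SE of the H-F value fell to 0.14 and that of the J value, then 0.26, to 0.13, and the adjusted p was 0.976 and 0.568 by the edgeR QL test. In J calf 9, IFNB1 went from 1.44 to 2.88 and 2.69 CPM, which was the largest change of the ligand gene among the 15 calves.

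Whether the genes moved together was first asked calf by calf, within each breed, for the mean over the 3 days and for the changes from d -14 to d 1 and from d -14 to d 8. This gave 18 relations between pairs of the 3 genes, each with a two-sided exact permutation test and adjustment over the 18. IFNB1 and the 2 induced genes did not rise together in any of them beyond the threshold of 0.1. The single positive relation of IFNB1 with a low unadjusted p was that with CXCL10 over the means of J calves (r = 0.792, n = 7, exact permutation p = 0.0337, adjusted p = 0.121, rho = 0.679 with exact permutation p = 0.110 and adjusted p = 0.440, r = 0.687 without the 2 calves with the most extreme IFNB1). In H-F calves the same relation had r = 0.505 (n = 8, exact permutation p = 0.197, adjusted p = 0.501, rho = 0.381, r = 0.432 without the 2 calves). IFNB1 and CD274 had r = -0.0354 over the means of H-F calves and 0.297 over those of J calves, with adjusted p of 0.935 and 0.775 in the exact permutation test. These values turned on single calves: without the 2 calves with the most extreme IFNB1 they were -0.561 and -0.898, leaving out 1 calf gave -0.533 to 0.703 in J calves, and all 16 calves gave 0.676.

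The relations of IFNB1 that passed the threshold were inverse, and both were in H-F calves from d -14 to d 1. The change of IFNB1 and that of CXCL10 had r = -0.875 (n = 8, exact permutation p = 0.00414, adjusted p = 0.0373), and the change of IFNB1 and that of CD274 had r = -0.896 (n = 8, exact permutation p = 0.00305, adjusted p = 0.0373). The rank correlations were -0.810 (exact permutation p = 0.0218, adjusted p = 0.196) and -0.905 (exact permutation p = 0.00456, adjusted p = 0.0821). IFNB1 and CD274 changed in opposite directions in all 8 H-F calves, although the IFNB1 change was as small as -0.09 in H-F calf 33 (83 and 88 reads). The calves at the ends were H-F calf 27, with a log2 change of -0.76 for IFNB1, 1.75 for CXCL10 and 0.71 for CD274, and H-F calf 20, with 0.49, -0.70 and -0.62. Their IFNB1 changes rest on few reads, 40 and 19 in H-F calf 27 and 16 and 18 in H-F calf 20. Counting error, 25% at 16 reads, is thus part of these changes, and the permutation test does not separate it. Without these 2 calves r was -0.533 for CXCL10 and -0.748 for CD274. With H-F calf 20 alone left out, r was -0.835 and -0.864, and with H-F calf 27 alone left out it was -0.719 and -0.838, and in these smaller sets neither relation passed the threshold (adjusted p 0.118 to 0.292, exact permutation test). The relation with CXCL10 thus depended more on the 2 calves than that with CD274. J calves did not show the inverse relation from d -14 to d 1, with r = -0.0635 and 0.187 (n = 7, exact permutation p = 0.890 and 0.689, adjusted p = 0.935 and 0.775). From d -14 to d 8 the relations of IFNB1 with CXCL10 had r = -0.477 in H-F and -0.213 in J calves, and those with CD274 had 0.211 and -0.372, with adjusted p from 0.501 to 0.775 (exact permutation test). The difference between the breeds in these relations was not tested.

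CXCL10 and CD274, the 2 induced genes, had a positive r for all 4 sets of changes, and 2 of the 4 passed the threshold. In H-F calves from d -14 to d 1, r was 0.787 (n = 8, exact permutation p = 0.0126, adjusted p = 0.0569), and in J calves from d -14 to d 8 it was 0.917 (n = 7, exact permutation p = 0.0117, adjusted p = 0.0569). The rank correlations were 0.762 (adjusted p = 0.221, exact permutation test) and 0.607 (adjusted p = 0.440, exact permutation test). Without the 2 calves with the most extreme CXCL10 change, r was 0.350 (without H-F calves 27 and 20) and 0.359 (without J calves 13 and 60), so these relations rest on few calves. The other 2 did not pass, with r = 0.482 in H-F calves from d -14 to d 8 (adjusted p = 0.501, exact permutation test, rho = 0.548, 0.346 without 2 calves) and r = 0.382 in J calves from d -14 to d 1 (adjusted p = 0.767, exact permutation test, rho = 0.143, -0.187 without 2 calves). In J calf 13 CXCL10 went from 3.36 CPM on d -14 to 7.03 and 16.1 CPM, and CD274 from 5.06 to 8.15 and 25.6 CPM, while IFNB1 had 4.27, 5.49 and 4.34 CPM. In H-F calf 27 CXCL10 went from 8.28 to 28.0 CPM on d 1 and back to 7.0 CPM on d 8, and CD274 from 17.2 to 28.2 and then 7.28 CPM, while IFNB1 had 1.12, 0.63 and 1.20 CPM. In J calf 13 the lowest and highest day of the ligand gene differed by 1.28-fold, against 4.79-fold for CXCL10 and 5.06-fold for CD274.

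**Figure D3:**
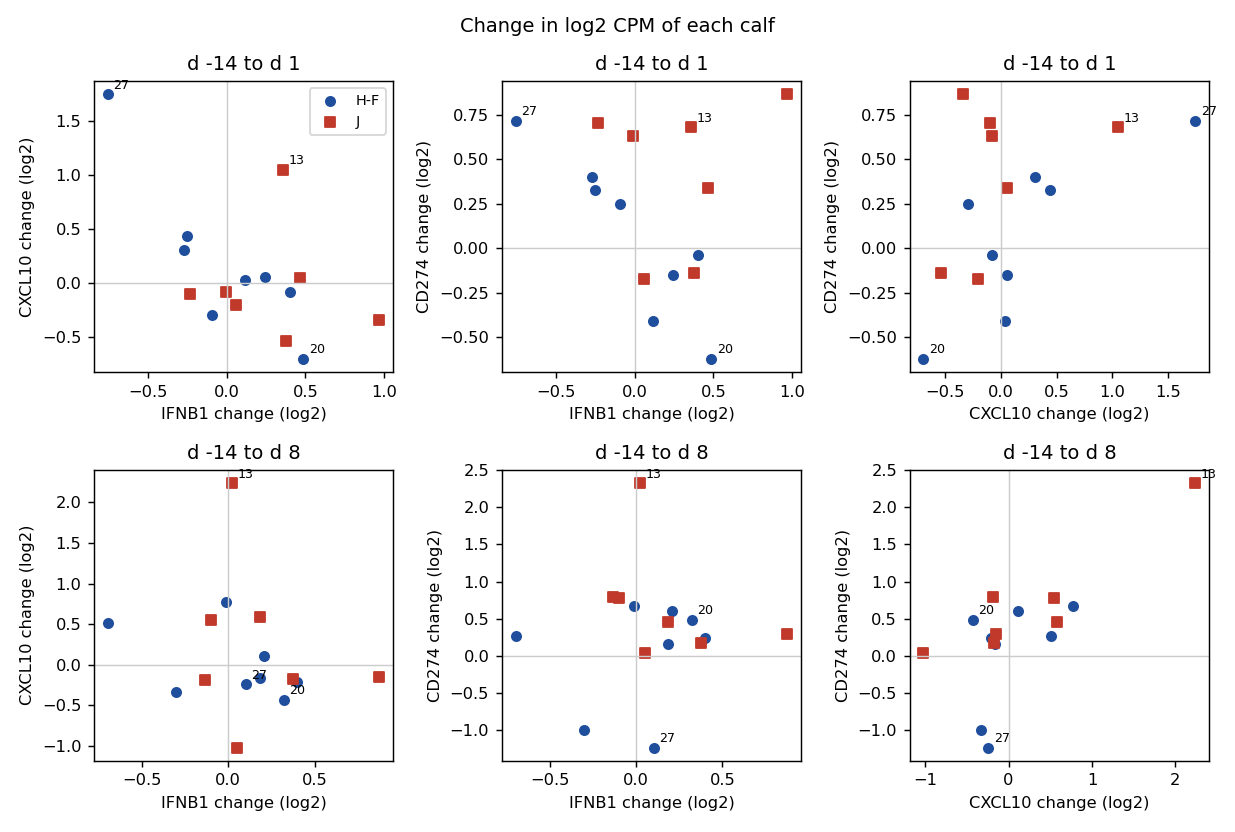
Change in log2 CPM of each calf from d -14 to d 1 (top) and from d -14 to d 8 (bottom) for the 3 pairs of genes, with 8 H-F calves as blue circles and 7 J calves as red squares. H-F calves fall from upper left to lower right in the top left and top middle panels (r = -0.875 and -0.896), with calves 27 and 20 at the ends, and J calf 13 stands alone at the upper right of the bottom right panel.

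The 3 genes were also compared over all 45 libraries after removal of the mean of each breed and day, given as a description since the 3 libraries of a calf are not independent. The positive relation of CXCL10 and CD274 was seen here too, with r = 0.550, which placed CD274 as the gene 84th most like CXCL10 among the 12676 other tested genes, and CXCL10 190th for CD274. The inverse relations of IFNB1 were between changes within H-F calves. The r over libraries pools both breeds and keeps the level of each calf, so it cannot check them. By this measure, IFNB1 and CXCL10 had r = 0.223, with CXCL10 at place 2238 for IFNB1, and IFNB1 and CD274 had r = -0.0579, with CD274 at place 8190. The genes most like each of the 3 carry no symbol in the study's gene tables, except for 1 of the 15. They were led by ENSBTAG00000010166 for IFNB1 (r = 0.671), ENSBTAG00000007867 for CXCL10 (r = 0.832) and ENSBTAG00000003326 for CD274 (r = 0.859), and the 5 nearest genes had r of at least 0.634, 0.753 and 0.768 respectively.

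Other interferon-induced genes were examined from 2 lists of textbook targets. Symbols could be matched to identifiers only through the study's tables of genes that differed between breeds, so 14 of 51 symbols of the type I list and 6 of 33 of the interferon gamma list were found, and every gene found had been selected for a difference between breeds on at least 1 day. The genes of the interferon receptors, those listed as inducers of interferon beta, CXCR3, CXCL9, CXCL11, the gene of PD-1 and interferon gamma were not analysed here for the same reason. Over the 45 libraries, the 14 type I genes had a median r of 0.108 with IFNB1 (12 positive, 1 above 0.3), 0.452 with CXCL10 (14 positive, 9 above 0.3) and 0.411 with CD274 (13 positive, 12 above 0.3). Across all tested genes the median r was 0.0345, -0.0106 and 0.00351, and r was positive for 55.8%, 48% and 50.6% of genes. OAS1X, a gene of the antiviral oligoadenylate synthetases, had r = 0.342 with IFNB1, 0.514 with CXCL10 and 0.405 with CD274. IFIT1, which binds foreign RNA, had r = 0.0388, 0.138 and 0.424, and IFITM1, a membrane protein that hinders the entry of viruses, had r = -0.404, 0.0210 and 0.0996. The 6 interferon gamma genes had a median r of 0.0100 with IFNB1 (3 positive), 0.259 with CXCL10 (6 positive) and 0.303 with CD274 (6 positive). The list genes thus varied with the chemokine and PD-L1 genes more than with the ligand gene, as a description of these libraries.

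**Figure D4:**
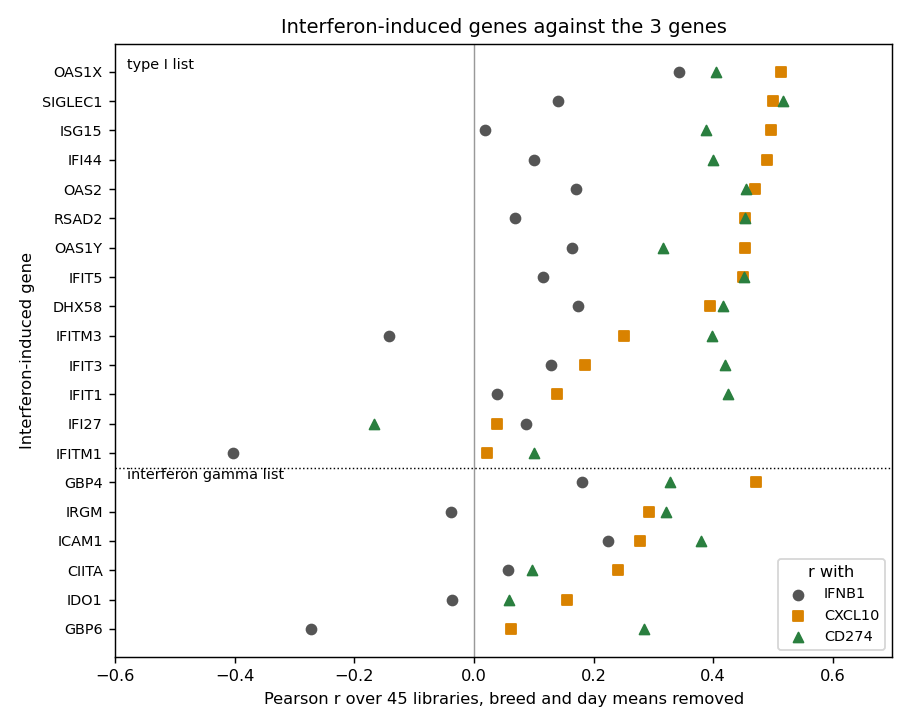
Pearson r, over 45 libraries with the breed and day means removed, of each of 14 type I and 6 interferon gamma induced genes with IFNB1 (grey circles), CXCL10 (orange squares) and CD274 (green triangles). In the type I list, the circles lie around 0 (median 0.108) and most squares and triangles to the right of them (medians 0.452 and 0.411).

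Calf by calf, the changes of the type I genes were mostly positively related to those of CD274 and CXCL10, and in 3 of 4 sets of changes mostly inversely to that of IFNB1. In H-F calves from d -14 to d 8, the 14 genes had a median r of 0.718 with CD274 (14 positive) and 0.601 with CXCL10 (13 positive), and -0.296 with IFNB1 (2 positive). From d -14 to d 1 these medians were 0.407 (13 positive), 0.256 (12 positive) and -0.451 (2 positive), so that the inverse relation was as large in size as the positive ones. In J calves from d -14 to d 1 the medians were 0.0828 with CD274 (9 positive), 0.470 with CXCL10 (12 positive) and -0.343 with IFNB1 (5 positive), and from d -14 to d 8 they were 0.235, 0.342 and 0.105 (12, 11 and 11 positive). Over the means of the 3 days, IFNB1 had a median r of 0.367 with the type I genes in H-F calves (13 positive) and -0.0247 in J calves (5 positive). These are values over 8 and 7 calves, and the list genes are not independent of each other. The matching shares of positive r over all genes are not given here.

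The high libraries of the 2 induced genes were looked at for the type I list. In H-F calf 27 on d 1, 12 of the 14 genes were among the 2 highest of the 8 H-F calves, against 21.1% of all genes, and 12 had their highest value of the 3 days there, against 33.1% of all genes. Of the 6 interferon gamma genes, 4 were among the 2 highest and 4 had their highest value there. OAS1X in this calf had 338, 390 and 139 CPM on the 3 days, and IFIT1 had 294, 470 and 111 CPM. Its peak of CXCL10 and CD274 on d 1 and its low values on d 8 were thus shared by most type I genes. In J calf 13 the type I genes were highest on d 1 (12 of 14, against 30.6% of all genes), when OAS1X had 200 and IFIT1 355 CPM, and not on d 8, when they had 130 and 226 CPM and only 1 of the 14 was among the 2 highest of the 7 J calves. The peak of CXCL10 and CD274 on d 8 in J calf 13 thus came on a later day than that of most type I genes. Of the 6 interferon gamma genes, 3 were highest on d 8 in this calf, against 29.1% of all genes, which is too few genes to tell from that share.

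Between breeds, the type I genes had the direction of CXCL10 and CD274 on d -14. Of the 14 genes, 12 were lower and 1 higher in J calves by the edgeR QL test on d -14, with a median log2 fold change of -0.77. The 13 called genes became 6 without J calf 13 and 6 at an FDR of 5%. Over all genes, 382 of 12653 were called on d -14 without J calf 13, and 520 of 12677 with it. On that day 4.1% of all genes were called, 2.52% lower and 1.58% higher in J calves. On d 1, 1 of the 14 was called (3.73% of all genes), and on d 8, 1 of the 14 (3.13% of all genes), with medians of -0.23 and -0.42. With 1 calf left out, 0 to 3 of the 14 were called on d 8, when 318 to 470 of all genes were called. The list was found through genes selected on these samples, so its counts are not independent evidence of a direction. OAS1X had a log2 fold change of -1.17 (SE 0.30, adjusted p = 0.0109, edgeR QL) on d -14 and -0.38 (SE 0.29, adjusted p = 0.404) on d 1, OAS2 had -1.27 (SE 0.48, adjusted p = 0.0792) and 0.01 (SE 0.47, adjusted p = 0.989), and IFIT1 had -0.78 (SE 0.27, adjusted p = 0.0505) and -0.23 (SE 0.26, adjusted p = 0.595). On d 8 these genes had -0.43 (SE 0.29), -0.19 (SE 0.47) and -0.45 (SE 0.26). IFITM1 changed less between days, with -0.59, -0.44 and -0.52 (SE 0.16 each, adjusted p = 0.0176, 0.0704 and 0.0436, edgeR QL). It missed the call on d 1 and d 8 by the fold threshold only. IFITM3 had -0.71, -0.32 and -0.53 (SE 0.21 each), of which that of d -14 passed. IFIT3 (-0.61, SE 0.26, adjusted p = 0.116) was the 1 gene of the list that did not pass on d -14. IFI27, a type I interferon target, had the direction of IFNB1 instead, with 1.48 (SE 0.54), 1.76 (SE 0.54) and 1.56 (SE 0.54) on the 3 days, and was the 1 gene called on d 1 and on d 8.

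The interferon gamma list was mixed in direction, with 4 of 6 genes higher and 2 lower in J calves on each day, called or not. Its genes were also found only through genes selected on these samples, so its counts and adjusted p are not independent evidence. Of its 6 genes, 1 was higher and 1 lower in J calves on d -14 by the edgeR QL test, against 1.58% and 2.52% of all genes. On d 1 there were 3 higher and 2 lower, when 1.89% of all genes were called higher and 1.84% lower, and on d 8 there were 2 higher and 1 lower, against 1.2% and 1.93%. GBP4, a guanylate-binding protein, had log2 fold changes of 0.53 (SE 0.25, adjusted p = 0.169), 0.78 (SE 0.25, adjusted p = 0.0403) and 0.77 (SE 0.25, adjusted p = 0.0524). CIITA, the master regulator of MHC class II genes, had 0.63 (SE 0.16), 0.66 (SE 0.16) and 0.50 (SE 0.16), of which those of d -14 and d 1 passed. IRGM had 0.68, 0.58 and 0.80 (SE 0.28 each), of which that of d 8 passed. GBP6 had 0.64, 0.72 and 0.57 (SE 0.29 each), of which that of d 1 passed. IDO1, which breaks down tryptophan, was lower in J calves on all 3 days, with -0.74 (SE 0.18), -0.66 (SE 0.18) and -0.64 (SE 0.18). Genes of either list were thus found on the side of IFNB1 and on the side of CXCL10.

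**Figure D5:**
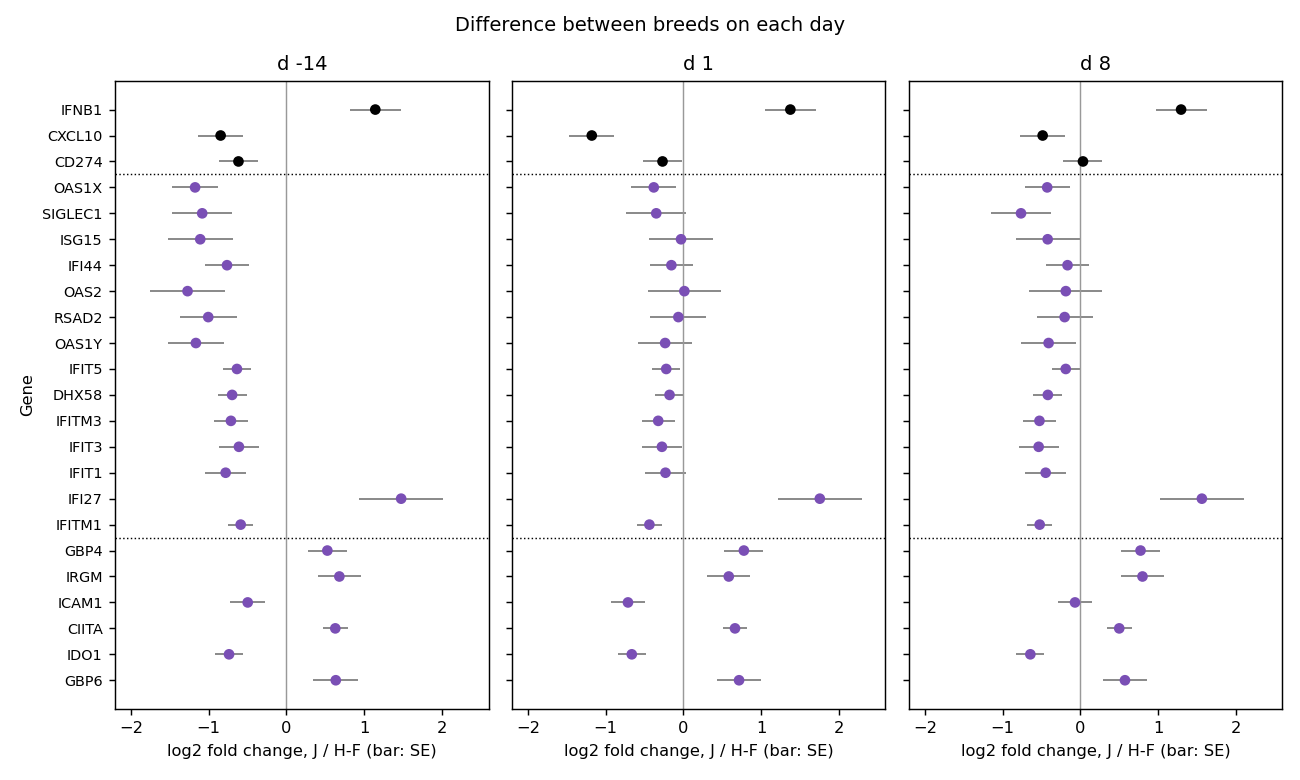
Log2 fold change of J over H-F with its SE on the 3 days for IFNB1, CXCL10 and CD274 (black) and the 14 type I and 6 interferon gamma genes (purple, separated by dotted lines). IFNB1 and IFI27 lie to the right of 0 on all 3 days, and the other type I genes lie to the left on d -14 (median of the 14 genes -0.77) and nearer to 0 on d 1 (median -0.23).

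Over the days, 0 of the 14 type I genes and 0 of the 6 interferon gamma genes were called in any of the 6 comparisons within breed by the edgeR QL test, with or without calf as a block, and by the exact test, DESeq2 and limma-voom. In J calves all 14 type I genes had a positive log2 fold change from d -14 to d 1 (median 0.48, 4 at an unadjusted p under 0.05), and 13 of 14 from d -14 to d 8 (median 0.47, 2 at an unadjusted p under 0.05). In H-F calves the medians were -0.19 and 0.05, with 3 and 8 of 14 positive and 0 at an unadjusted p under 0.05. CD274 had the same signs as these medians in J calves, 0.46 (SE 0.26) and 0.75 (SE 0.26), and CXCL10 had -0.02 (SE 0.30) and 0.38 (SE 0.30). The difference between breeds in the change from d -14 to d 1 was positive for 14 of 14 type I genes (median 0.58) and called for 0, with 0 at an unadjusted p under 0.05. Since 12 of the 14 genes were called lower in J calves on d -14, which is also the baseline of these changes, the shared sign is not independent of how the list was found.

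In whole blood, more or fewer cells of a type and more or less RNA per cell cannot be told apart. Of the marker lists, those of monocytes, neutrophils, T cells and red cells had no matched gene. The summed level of 5 of 6 B cell markers had a median of 783, 883 and 938 CPM in H-F calves and 1179, 1162 and 1222 CPM in J calves on the 3 days. That of 3 of 6 platelet markers was 349, 407 and 528 CPM in H-F and 228, 238 and 175 CPM in J. That of 2 of 7 cytotoxic lymphocyte markers was 27.1, 29.0 and 31.9 CPM and 22.0, 18.7 and 19.6 CPM. The 1 of 7 dendritic cell markers that was matched, FLT3, had 7.63, 6.32 and 6.10 CPM in H-F and 6.25, 5.44 and 3.80 CPM in J calves. By these medians the B cell markers were higher in J calves and the others lower. Markers too were matched only through the study's tables of genes that differed between breeds. Their directions are therefore not independent of how they were found, and the unmatched markers of each list were not examined. Within breed and day, PF4, a platelet chemokine, had r = -0.400 with IFNB1 and -0.0184 with CXCL10 over the 45 libraries, and the 5 B cell markers had r from -0.144 to -0.0571 with IFNB1. FLT3 had r = 0.297 with IFNB1 and -0.0736 with CXCL10, and the cytotoxic markers NCR1 and GZMB had r = -0.223 and -0.291 with CXCL10. The part of cell numbers in the values of the 3 genes was not tested.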

How the data were processed

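Whole-blood RNA of 16 calves on 3 days gave 48 libraries, made with a kit that does not mark strand. The authors aligned reads to UMD3.1 with STAR, discarded reads that mapped to several places or had 2 or more mismatches, and deposited whole-number counts per Ensembl gene from HTSeq, without normalization. For STAR and HTSeq the version is not given in the sources used here, and the submitters' processing notes list FastQC 0.10.0. Every column was matched to a calf and day by its label. The study left out a J calf without naming it. Mean log2 CPM over 800 genes differed from the study's gene tables by 0.00317 (root mean square) without J calf 85 and by 0.0512 or more without any other, so J calf 85 was left out. Spike-ins were removed.

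Genes above 1 CPM in at least 8 libraries (12677) were fitted in edgeR 4.0.16 (R 4.3.3) with TMM factors, a mean for each breed and day and the quasi-likelihood F test, without a calf term, as in the study. Genes were called at an FDR of 10% (Benjamini-Hochberg) with a 1.5-fold or larger change (no fold threshold for interactions). Log2 CPM used a prior count of 2. The calf number in the labels pairs libraries of the same animal: residuals of the same calf correlated at 0.375 to 0.856 (45 pairs) and those of different calves at -0.595 to 0.304 (945 pairs). Alternatives were the exact test, DESeq2 1.42.0, limma-voom 3.58.1 with calf as random effect, RLE factors, other filters and thresholds, calf as a block, all 16 calves, a fit of just the groups compared and each calf left out. Genes named are the 3 genes, the 5 most abundant of each interferon list, IFI27, GBP4 and OAS2, the gene most like each of the 3, and some matched cell markers. Members and lists were chosen with earlier results of these data known. The procedure was tested on simulated data. Correlations over calves and their permutation tests used numpy 2.4.6, with ranks from scipy 1.17.1, and those over the 45 libraries used R.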

Additional observations from a re-analysis of the deposited data

Results flagged for a closer look

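Each of the 3 genes was examined for calves far from the rest of their breed and day with Dixon's gap ratio, over 18 groups and 36 ends. Chance gives about 1 such calf in 20 groups, and 3 ends were beyond the critical value. J calf 13 had 16.1 CPM of CXCL10 on d 8, the highest of 7 J calves, with 7.83 CPM in the next. H-F calf 27 had 28.2 CPM of CD274 on d 1, the highest of 8 H-F calves, with 17.4 CPM in the next. J calf 13 had 5.06 CPM of CD274 on d -14, the lowest of 7 J calves, with 8.29 CPM in the next.

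The libraries of J calf 85, which enter no comparison, had more IFNB1 than any of the other 15 calves on each day, at 5.28 CPM on d -14, 11.2 CPM on d 1 and 7.32 CPM on d 8. Its CD274 was 10.6 CPM on d -14, 32.7 CPM on d 1, above all other calves, and 21.4 CPM on d 8. Its CXCL10 was 7.14, 5.43 and 7.56 CPM, within the range of the other J calves, and its OAS1X, a type I interferon target, was 131, 108 and 88.5 CPM. On d 1, both IFNB1 and CD274 were thus the highest of all 16 calves in J calf 85, and CXCL10 was not. With this calf among the others, the log2 fold change of IFNB1 between breeds was 1.26, 1.72 and 1.51 on the 3 days, and that of CD274 on d 1 was 0.01 in place of -0.27. The reason for which the calf was left out of the study was not tested here.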

How the results depend on the processing

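None of the 18 day changes of IFNB1, CXCL10 and CD274 was called under any alternative (468 values), and calf as a block changed no call (CD274, d -14 to d 8 in J calves, 0.73 with the block and 0.75 without it). The 9 differences between breeds in these changes were examined with calf as a block and with all 16 calves, and none was called. Counts of interferon-induced genes between breeds moved by over 1.5 times in these cases. Of the type I list, an FDR of 5% left 6 genes on d -14 (13 in the report) and 0 on d 8 (1). With no fold threshold there were 2 on d 1 and 2 on d 8. Only the groups compared gave 0 on d 8 (285 of 12279 over all genes), and all 16 calves gave 3 (529 of 12717). Of the interferon gamma list, limma-voom gave 5 on d -14 (2), with 596 of 12677 over all genes, and an FDR of 5% gave 1 on d 8 (3). Counts over all genes at an FDR of 5% or with no fold threshold are not given here. With all 16 calves, the relation of IFNB1 and CXCL10 over the means of J calves passed the threshold (r = 0.779, adjusted p = 0.0843, exact permutation test). The causes were not tested.

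Leaving out each calf in turn gave 6 to 14 type I genes on d -14 (fewest without J calf 13, and 7 or 8 without J calf 57 or 77 or H-F calf 25, 33 or 49), 1 to 1 on d 1 and 0 to 3 on d 8 (0 without J calf 9 and H-F calves 20, 32 and 48, 3 without H-F calf 27, 2 without J calf 7 or H-F calf 56). The interferon gamma list gave 1 to 4 on d -14 (1 without H-F calf 32 and J calf 60, 4 without J calf 77), 3 to 5 on d 1 (3 without J calves 9 and 13) and 2 to 4 on d 8. For changes from d -14 to d 1 in H-F calves, r was -0.933 to -0.719 for IFNB1 with CXCL10, -0.946 to -0.838 for IFNB1 with CD274 and 0.681 to 0.878 for CXCL10 with CD274. The first 2 missed the threshold when H-F calf 20 or 27 was left out, and the third without H-F calf 20, 25, 27, 32, 49 or 56. For CXCL10 with CD274 in J calves from d -14 to d 8, r was 0.653 to 0.953, and it missed the threshold without J calf 7, 9, 13, 60 or 77, although only leaving out J calf 13 lowered r appreciably (to 0.653, against at least 0.915 without the other 4). With 1 calf fewer the exact test rests on fewer pairings, and the reason for the lost calls was not tested. Depth limits IFNB1 most, since its lowest library holds 16 reads.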
